A study of Mus musculus with 36 samples.

Results

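The levels of miR-221-3p, miR-221-5p and miR-222-3p were followed across 36 small RNA libraries of mouse prostate. They are 3 of the 1963 miRNAs listed in each deposited table and were picked out by name, with no threshold on a measured value. miR-222-5p, the remaining arm of the pair of hairpins, was too low for the tests and is given here only as levels. The libraries came from the ventral and lateral prostate lobes of male mice on a background labelled C56NL/6N, taken at 10 and 30 weeks of age. WT mice carried ELAC2+/+, KO mice lacked Elac2 (ELAC2-/-) in the prostate only, where Pb-Cre removed 1 exon, and A537T mice carried the point mutation ELAC2A537T on both alleles in the whole body. Each line was studied alone and with 1 copy of the TRAMP transgene (TRAMP +/-), which places SV40 T antigens under the probasin promoter of the prostate epithelium. The 3 lines, 2 ages and presence or absence of TRAMP gave 12 groups of 3 libraries. Elac2 itself is no miRNA, so these libraries hold no check of the genotypes. The labels number the libraries of a group as replicates without naming animals, and the study's methods describe the replicates as biological, with 3 mice of each line and age, so the p-values measure the spread between mice.

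A miRNA is cut as a hairpin from a longer transcript, and either arm of the hairpin can be loaded into an Argonaute protein, where bases 2 to 8 of the mature strand (the seed) pair with target messenger RNAs. miR-221 and miR-222 are transcribed from adjacent hairpins and their 3p arms share a seed, so both are placed in a single family. Their best known target is Cdkn1b, which encodes the cell cycle inhibitor p27, and Kit and Timp3 are further targets. In the prostate the family has been described as lower in tumours than in normal gland and as high in androgen-independent cancer cells. ELAC2 trims the 3′ trailer off immature transfer RNAs.

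The mature sequences of the 3 arms, taken from RefSeq (GRCm38.p6) and written 5′ to 3′, are shown because the seed decides which arms act as 1 family. The capitals mark the seed.
mmu-miR-221-3p: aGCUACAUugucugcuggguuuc
mmu-miR-222-3p: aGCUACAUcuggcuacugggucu
mmu-miR-221-5p: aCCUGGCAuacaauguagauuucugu
miR-221-3p and miR-222-3p had the same first 8 bases and were identical at 11 of 23 positions when laid end to end without gaps, while miR-221-5p carried a different seed. Of 1679 mature mouse miRNAs with a sequence in the table, miR-1928 was the only other one with the seed of miR-221-3p, and it had no read in any of the 36 libraries. A count of 0 allows up to 3 reads, which is 0.137 CPM in the deepest library and 4.58 CPM in the shallowest. Among miRNAs with a sequence, the family seed was thus carried by miR-221-3p and miR-222-3p as far as this depth can show. Only 1670 of the 1963 listed miRNAs matched a sequence by name, and the others were not checked for the seed.

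The hairpins lie on the minus strand of the X chromosome in GRCm38, Mir222 at chrX:19146893-19146971 and Mir221 at chrX:19146294-19146388, with 504 bases between them. Since both are on the minus strand, Mir222 comes first in the direction of transcription. GENCODE gives each as a miRNA gene of 1 exon, and no other annotated gene overlaps either hairpin. The Mir221 hairpin is shown because both of its arms were measured, with miR-221-5p first and miR-221-3p second in capitals.
Mir221: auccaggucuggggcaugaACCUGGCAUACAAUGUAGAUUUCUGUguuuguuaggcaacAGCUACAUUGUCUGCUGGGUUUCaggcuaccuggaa

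Levels are given in CPM, the reads of a miRNA scaled to counts per 1e6 miRNA reads of the library, so that all 12 groups stand on 1 scale. The libraries held 655455 to 21870210 reads. Library 35, 1 of the 3 A537T libraries at 10 weeks, was the shallowest, and the next lowest held 4544257. At 10 weeks the TRAMP libraries held 4544257 to 13014486 reads, and those without TRAMP, apart from library 35, 12422946 to 18574473. Libraries 1 to 18 carried TRAMP and libraries 19 to 36 did not. Over all libraries miR-221-3p averaged 1100 CPM and ranked 56 of 1963 miRNAs, miR-222-3p averaged 425 CPM (rank 91) and miR-221-5p 60.5 CPM (rank 179). miR-222-5p averaged 6.51 CPM (rank 344). The fewest reads behind any value were 556 for miR-221-3p, 222 for miR-222-3p and 24 for miR-221-5p, all in library 35, and no library had 0 reads of any of the 4 arms. Together the 4 arms made up 0.0616% to 0.306% of the reads of a library.

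**Figure D1:**
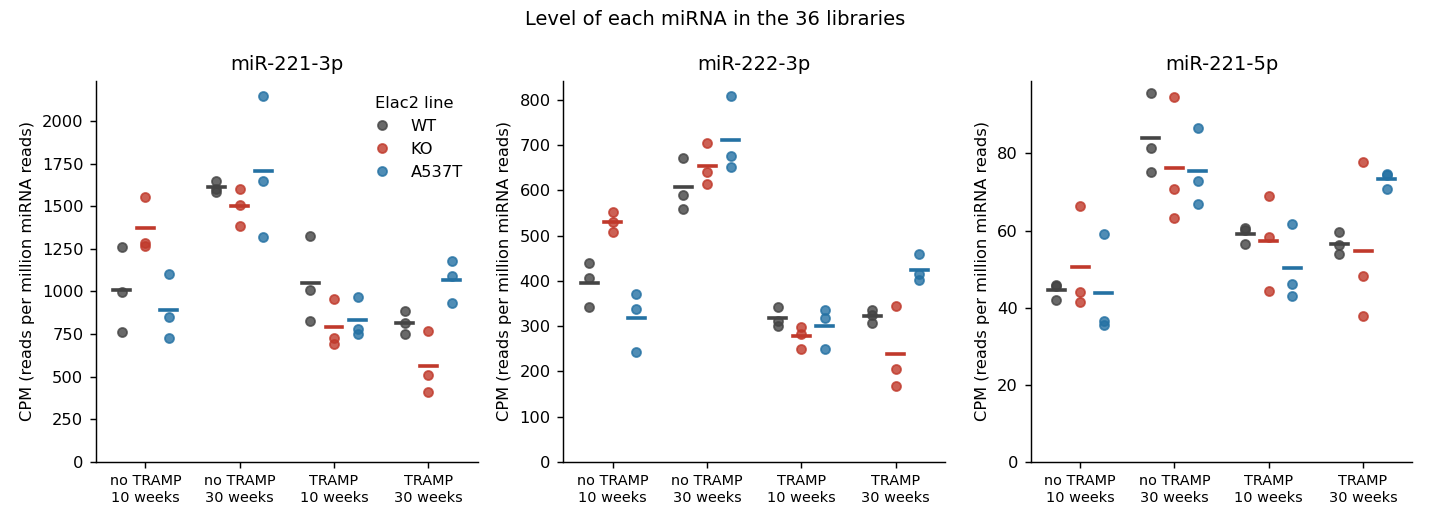
Level of each miRNA in CPM (linear axes from 0) in the 36 libraries, by TRAMP background and age on the horizontal axis and by Elac2 line in colour; points are libraries and bars are means of 3. At 30 weeks the 9 TRAMP libraries lie below all 9 libraries without TRAMP for miR-221-3p and miR-222-3p, and overlap with them for miR-221-5p.

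At 30 weeks both family members were lower in TRAMP prostates than in prostates without the transgene, in all 3 Elac2 lines. In WT the level of miR-221-3p was about 1.98 times that in WT-TRAMP, in KO 2.67 times that in KO-TRAMP, and in A537T 1.60 times that in A537T-TRAMP. For miR-222-3p the same ratios of mean CPM were 1.88, 2.74 and 1.68. miR-221-5p did not pass the test in any line. RNA of the whole lobe was sequenced, so fewer cells that express a miRNA and less of it in each cell cannot be told apart.

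The miR-221-3p level in WT at 30 weeks was 1649, 1600.4 and 1584 CPM in libraries 19 to 21, against 883, 749 and 815 CPM in WT-TRAMP libraries 10 to 12. In KO it was 1385, 1604 and 1509.9 CPM, against 765, 409 and 511 CPM in KO-TRAMP libraries 16 to 18. In A537T it was 1647, 2149 and 1319 CPM, against 1181, 1090.4 and 929 CPM in A537T-TRAMP. No TRAMP library reached the lowest library without TRAMP of its line, as for 27.9% of all miRNAs in WT, 11.4% in KO and 11.1% in A537T, and library 16 stood above the other KO-TRAMP libraries.

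The log2 fold change of miR-221-3p was -0.98 ± 0.22 (SE) in WT (limma adjusted p = 0.000957), -1.46 ± 0.22 in KO (adjusted p = 7.43e-06) and -0.65 ± 0.22 in A537T (adjusted p = 0.0405). These are changes of log2(CPM + 1), fitted on 298 miRNAs with a mean of at least 10 CPM and adjusted over them with the Benjamini-Hochberg method. The A537T call rested on several libraries, since it was lost without library 14, 15, 25 or 26 (adjusted p 0.0783 to 0.189), and also without the filter on low levels (adjusted p = 0.13) or with the groups of the contrast fitted alone (adjusted p = 0.112).

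miR-222-3p, the family partner, was lower with TRAMP in the same lines. WT libraries held 672, 558 and 589.8 CPM at 30 weeks and WT-TRAMP libraries 336, 306 and 325 CPM. KO libraries held 639.98, 705 and 615 CPM and KO-TRAMP libraries 343, 167 and 204 CPM. A537T libraries held 676, 810 and 652 CPM and A537T-TRAMP libraries 458, 401 and 415 CPM. The groups did not overlap in any line, as for 27.9% of all miRNAs in this direction in WT, 11.4% in KO and 11.1% in A537T. Library 16 was again the highest of the KO-TRAMP group.

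The log2 fold change of miR-222-3p was -0.91 ± 0.19 in WT (limma adjusted p = 0.000446), -1.52 ± 0.19 in KO (adjusted p = 3.35e-07) and -0.74 ± 0.19 in A537T (adjusted p = 0.00506). By p-value it ranked 28, 8 and 28 of 298 miRNAs in these comparisons, and miR-221-3p ranked 38, 15 and 45. Without library 16 the decreases in KO-TRAMP were larger, at -1.71 for miR-221-3p and -1.81 for miR-222-3p.

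Many miRNAs differed between TRAMP and non-TRAMP prostates, so the calls are read against that background. At 30 weeks the share of the 298 miRNAs called lower with TRAMP was 16.8% in WT, 11.1% in KO and 3.02% in A537T, whereas 2 of the 3 arms were called lower in each line. With TMM factors or DESeq2 size factors in place of library totals, the miRNAs called lower numbered 53 and 58 in WT (50 with totals), 61 and 69 in KO (33 with totals) and 18 and 18 in A537T (9 with totals). The median log2 change of all 298 miRNAs was -0.12 in WT, 0.25 in KO and -0.04 in A537T, and -0.09, -0.04 and -0.16 with DESeq2 size factors. Relative to that median miR-221-3p stood at -0.86, -1.71 and -0.61 and miR-222-3p at -0.78, -1.76 and -0.70 in WT, KO and A537T. Over the 3 lines together, the 9 TRAMP libraries at 30 weeks did not overlap with the 9 others for miR-221-3p (409 to 1181 against 1319 to 2149 CPM) and miR-222-3p (167 to 458 against 558 to 810 CPM), a pattern found in 13.4% of the miRNAs.

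miR-221-5p, the opposite arm of the Mir221 hairpin, showed smaller differences at 30 weeks. WT libraries held 95.8, 75.1 and 81.3 CPM and WT-TRAMP libraries 56.3, 54.0 and 59.6 CPM. These do not overlap, as for 27.9% of all miRNAs in this direction. KO libraries held 63.3, 94.5 and 70.7 CPM and KO-TRAMP libraries 77.8, 37.9 and 48.1 CPM, with library 16 inside the KO range. A537T libraries held 66.9, 86.5 and 72.7 CPM and A537T-TRAMP libraries 74.5, 70.8 and 74.6 CPM, which overlap fully.

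The log2 fold change of miR-221-5p was -0.56 ± 0.23 in WT (limma adjusted p = 0.062), -0.52 ± 0.23 in KO (adjusted p = 0.0776) and -0.03 ± 0.23 in A537T (adjusted p = 0.945). Over both ages, 0 of the 6 comparisons of miR-221-5p with and without TRAMP passed the adjusted threshold in limma. An unadjusted p under 0.05 was found in 2, WT and KO at 30 weeks, as for 135 and 142 of the 298 miRNAs. edgeR and DESeq2 each called 1, the decrease in KO-TRAMP at 30 weeks. That decrease also passed with TMM (-0.77) and with DESeq2 size factors (-0.82), and without library 16 (-0.80, adjusted p = 0.00707). miR-222-5p was listed at 5.21 to 11.2 CPM without TRAMP and 2.60 to 6.93 CPM with TRAMP at 30 weeks.

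**Figure D2:**
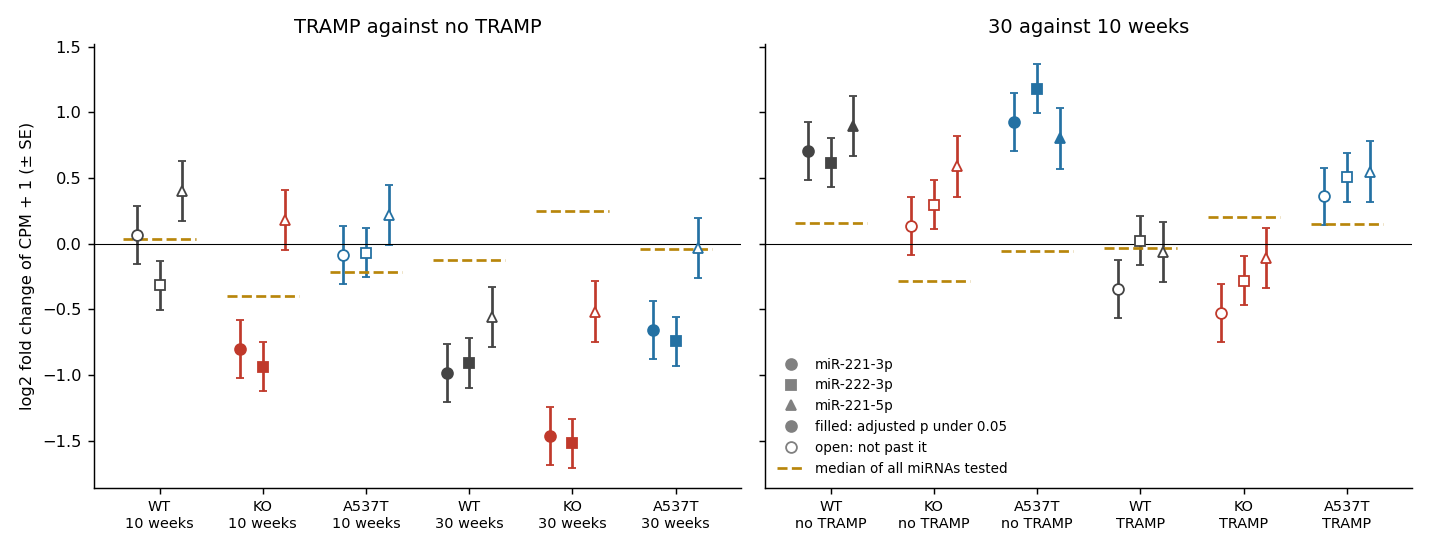
Log2 fold change of CPM + 1 with its standard error for the 3 arms, TRAMP against no TRAMP at each age (left) and 30 against 10 weeks on each background (right), by Elac2 line. Filled symbols passed a limma adjusted p of 0.05 and dashed lines are the median of the 298 miRNAs tested; both 3p arms are filled and below the dashed line in every line at 30 weeks.

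At 10 weeks the TRAMP transgene came with lower levels of both family members in KO, while the tests in WT and A537T did not pass. The difference between the lines was not tested. KO libraries held 1287, 1269.5 and 1554 CPM of miR-221-3p and KO-TRAMP libraries 693, 958 and 725 CPM, a log2 fold change of -0.80 ± 0.22 (limma adjusted p = 0.0051). For miR-222-3p the values were 509, 551 and 530.5 CPM against 299, 283 and 249 CPM, a change of -0.94 ± 0.19 (adjusted p = 0.000379). The groups did not overlap for either arm, as for 39.3% of all miRNAs in this direction, the median of all miRNAs was itself -0.40 in this comparison and 32.6% of them were called lower. With DESeq2 size factors that median was -0.01, 50 miRNAs were called lower and 92 higher in place of 97 and 45, and neither arm passed (-0.41, adjusted p = 0.108, and -0.55, adjusted p = 0.0599). Both arms passed with TMM factors (-0.56, limma adjusted p = 0.0306, and -0.70, adjusted p = 0.0132). They also passed with skeletal muscle miRNAs out of the totals (-0.82, adjusted p = 0.00306, and -0.96, adjusted p = 0.00034).

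In WT at 10 weeks, miR-221-3p was at 1263, 996 and 761 CPM without TRAMP and 1325, 1006 and 825 CPM with it, which overlap (log2 change 0.07 ± 0.22, limma adjusted p = 0.829, turning below 0 with TMM, with muscle miRNAs out of the totals and in DESeq2). miR-222-3p was at 439, 407 and 343 CPM without TRAMP and at 341, 311 and 299.6 CPM with it, without overlap (-0.31 ± 0.19, adjusted p = 0.184), as for 19.1% of all miRNAs in this direction. The 3 WT libraries at 10 weeks drew 9.71% to 30.6% of their reads from skeletal muscle miRNAs, against 0.32% to 0.627% in WT-TRAMP, and with those miRNAs taken out of the totals the decrease of miR-222-3p passed the test (-0.63, adjusted p = 0.00762).

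In A537T at 10 weeks miR-221-3p was at 1104, 848 and 724 CPM without TRAMP and 753, 966 and 777 CPM with it, and miR-222-3p was at 370.1, 339 and 243 CPM and 318, 335 and 248 CPM. Both overlapped, with changes of -0.09 (limma adjusted p = 0.784) and -0.07 (adjusted p = 0.799) whose sign turned with TMM factors, DESeq2 size factors, edgeR and DESeq2. None of the 6 tests of the 3 arms in WT and A537T at 10 weeks had an adjusted or unadjusted p under 0.05 in limma, nor an adjusted one in edgeR or DESeq2, while 16.1% of all miRNAs were called lower with TRAMP in WT and 24.8% in A537T. With totals 74 miRNAs were called higher and 48 lower in WT and 43 and 74 in A537T, with TMM 59 and 60 in WT and 69 and 55 in A537T, and with muscle miRNAs out of the totals 47 and 83 in WT and 33 and 99 in A537T. The change of miR-221-5p with TRAMP at this age was 0.40, 0.18 and 0.22 on the log2 scale in WT, KO and A537T (limma adjusted p 0.168, 0.509 and 0.47). In WT the libraries did not overlap, and being higher at 10 and lower at 30 weeks without overlap held for 4.03% of all miRNAs, but with muscle miRNAs out of the totals the 10-week change was 0.091 (adjusted p = 0.791). Over the 3 lines the 9 TRAMP libraries at 10 weeks overlapped with the 9 others for each of the 3 arms, whereas 17.4% of all miRNAs did not overlap. Endothelial miRNAs did not overlap either at this age, at 1.24% to 1.86% of the reads without and 0.493% to 1.11% with TRAMP, and neither did red cell miRNAs, at 1056 to 1931 and 138 to 617 CPM. In KO, where both 3p arms were called lower, smooth muscle miRNAs made up 29.8% to 35.3% of the reads and 7.29% to 16.7% in KO-TRAMP, and 4 of 4 of them and 5 of 5 fibroblast miRNAs were called lower as well. Of 8 epithelial miRNAs, 5, 3 and 3 were called higher and 0, 2 and 1 lower with TRAMP in WT, KO and A537T. The part of these cell types in the 10-week results was not tested.

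**Figure D3:**
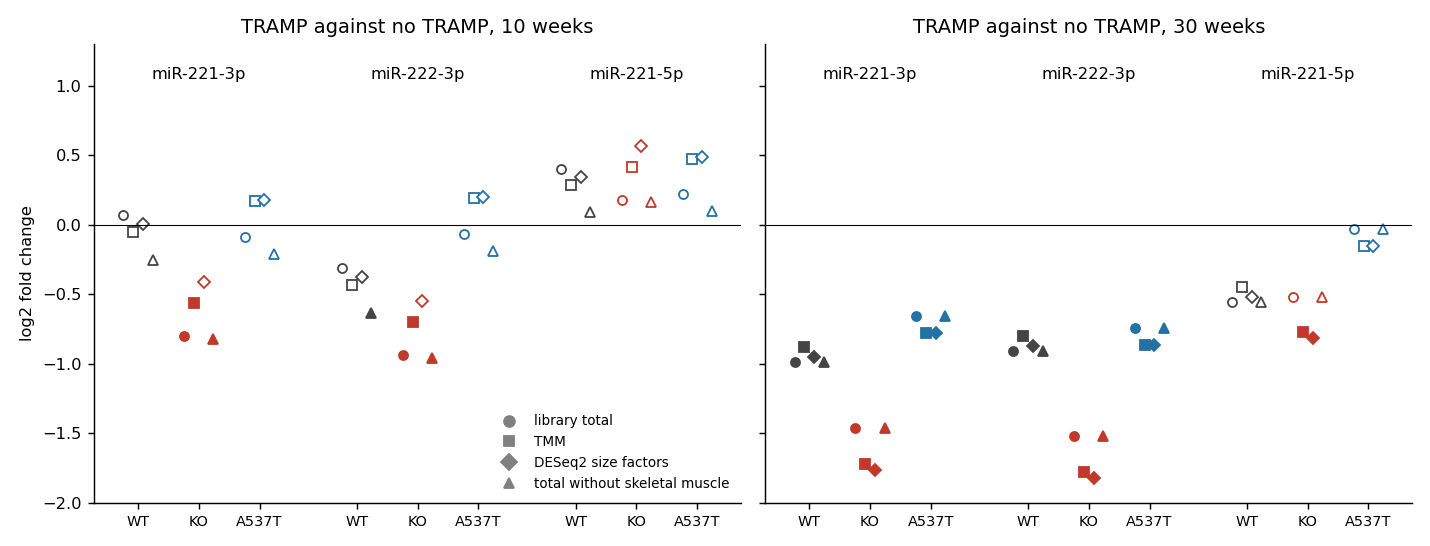
Log2 fold change of each arm with TRAMP at 10 weeks (left) and 30 weeks (right) under 4 ways of scaling the libraries (symbols), by Elac2 line; filled symbols passed an adjusted p of 0.05. At 30 weeks the 3p arms are filled under every scaling. At 10 weeks their calls in KO and the sign in A537T depend on it. So do the sign of miR-221-3p and the call of miR-222-3p in WT.

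Without the transgene, the family was higher at 30 than at 10 weeks in WT and A537T prostates. In WT, miR-221-3p went from 1006 ± 251 to 1611 ± 33.7 CPM (mean ± SD, n = 3), miR-222-3p from 396 ± 49.3 to 607 ± 58.8 CPM and miR-221-5p from 44.5 ± 2.15 to 84.1 ± 10.6 CPM. The log2 changes were 0.71 ± 0.22 (limma adjusted p = 0.0288), 0.62 ± 0.19 (adjusted p = 0.0248) and 0.90 ± 0.23 (adjusted p = 0.00728). None of the 3 arms overlapped between the ages, as for 19.8% of all miRNAs in this direction, but all 3 calls were lost once skeletal muscle miRNAs were taken out of the totals (0.39, 0.30 and 0.58, with adjusted p 0.227, 0.308 and 0.0929), and with TMM factors (adjusted p 0.07, 0.155 and 0.071). They also depended on single libraries, since miR-221-3p missed the threshold without library 19, 20, 21, 29 or 30 (adjusted p 0.0515 to 0.173), miR-222-3p without library 19, 21 or 30 (adjusted p 0.0546 to 0.115) and miR-221-5p without library 19 (adjusted p = 0.0532). The skeletal muscle miRNAs fell from 9.71% to 30.6% of the reads at 10 weeks to 0.388% to 0.448% at 30 weeks in WT, and 5 of the 5 tested were called lower. The remaining one of the list, miR-208b-3p, was at 0 reads in 21 libraries. With totals 21 miRNAs (7.05%) were called higher at 30 weeks in WT, and 18 lower, against 10 and 28 with TMM and 4 and 42 without the muscle miRNAs in the totals.

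In A537T all 3 arms also rose with age. miR-221-3p was at 1104, 848 and 724 CPM at 10 weeks and 1647, 2149 and 1319 CPM at 30 weeks, a log2 change of 0.93 ± 0.22 (limma adjusted p = 0.00333). miR-222-3p rose from 370.1, 339 and 243 CPM to 676, 810 and 652 CPM, a change of 1.18 ± 0.19 (adjusted p = 0.000209). miR-221-5p rose from 59.0, 36.6 and 35.5 CPM to 66.9, 86.5 and 72.7 CPM, a change of 0.80 ± 0.23 (adjusted p = 0.0153) that was lost without library 26, 35 or 36 (adjusted p 0.0692 to 0.105). None of the 3 arms overlapped between the ages, as for 15.8% of all miRNAs in this direction, and 7.05% of all miRNAs were called higher, with 21 higher and 33 lower by totals and 47 and 33 by TMM. Skeletal muscle miRNAs made up 3.72% to 13.7% of the reads of A537T at 10 weeks and 0.355% to 0.545% at 30 weeks. Taking them out of the totals left all 3 calls in place. Over the 3 lines without TRAMP, epithelial miRNAs went from 3.95% to 6.92% of the reads at 10 weeks to 6.17% to 10.3% at 30 weeks and endothelial ones from 1.24% to 1.86% to 0.585% to 1.35%, and their part in the age difference was not tested.

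In KO none of the 3 arms passed in limma between the ages, with 1 unadjusted p under 0.05, while edgeR and DESeq2 called 2 each (miR-221-5p and miR-222-3p). Of all 298 miRNAs, 109 had an unadjusted limma p under 0.05 in this comparison. miR-221-3p was at 1370.4 ± 159.5 CPM at 10 weeks and 1499.6 ± 110.3 CPM at 30 weeks (log2 change 0.13 ± 0.22, limma adjusted p = 0.66). miR-222-3p was at 530.2 ± 21.3 and 653 ± 46.1 CPM (0.30 ± 0.19, adjusted p = 0.225), without overlap as for 13.4% of all miRNAs in this direction, and miR-221-5p at 50.7 ± 13.7 and 76.2 ± 16.3 CPM (0.59 ± 0.23, adjusted p = 0.0764). Here 2.68% of all miRNAs were called higher with totals, which is 8 miRNAs against 38 lower, but 68 against 31 with DESeq2 size factors, where all 3 arms passed (0.59, 0.76 and 1.04). miR-221-5p also passed without library 22 (0.71) or 33 (0.80). The difference between the lines in this age effect was not tested. Over the 3 lines without TRAMP, the 9 libraries at 30 weeks did not overlap with the 9 at 10 weeks for miR-222-3p (558 to 810 against 243 to 551 CPM), as for 4.03% of all miRNAs, whereas miR-221-3p and miR-221-5p overlapped.

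On the TRAMP background no age difference of the 3 arms passed. In WT-TRAMP the changes from 10 to 30 weeks were -0.34 ± 0.22 for miR-221-3p, 0.02 ± 0.19 for miR-222-3p and -0.06 ± 0.23 for miR-221-5p (limma adjusted p 0.371, 0.958 and 0.907), with 8.72% of all miRNAs called in either direction. In KO-TRAMP they were -0.53, -0.28 and -0.11 (adjusted p 0.0902, 0.305 and 0.788), with 18.1% called. In A537T-TRAMP they were 0.36, 0.51 and 0.55 (adjusted p 0.357, 0.098 and 0.146), with 8.72% called. There miR-222-3p and miR-221-5p did not overlap between the ages, and the share of all miRNAs without overlap was not counted. Of these 9 tests 0 passed in limma and 3 had an unadjusted p under 0.05. So did 70, 102 and 63 of the 298 miRNAs in WT-TRAMP, KO-TRAMP and A537T-TRAMP. edgeR and DESeq2 each called 1, the decrease of miR-221-3p in KO-TRAMP. Without library 16 that decrease passed in limma as well, together with miR-222-3p (-0.78 and -0.58, adjusted p 0.00887 and 0.00896). With TRAMP the 9 libraries of each age overlapped for all 3 arms, and 2.68% of all miRNAs did not overlap.

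The test of the difference itself, TRAMP effect at 30 weeks minus TRAMP effect at 10 weeks, was below 0 for every arm in every line. It passed for miR-221-3p in WT (-1.05 ± 0.31, limma adjusted p = 0.0263), where 5.7% of all miRNAs passed below 0. In WT it was -0.96 ± 0.33 for miR-221-5p (adjusted p = 0.0506) and -0.59 ± 0.26 for miR-222-3p (adjusted p = 0.126). The WT call was lost without the skeletal muscle miRNAs in the totals (-0.73, adjusted p = 0.11), with TMM (-0.83, adjusted p = 0.06), without the filter (adjusted p = 0.0703) and without library 1, 2, 12 or 30 (-0.87 to -1.07, adjusted p 0.0512 to 0.0829), while miR-221-5p passed without library 20 (-1.04, adjusted p = 0.0497). In KO the values were -0.66, -0.70 and -0.58 for miR-221-3p, miR-221-5p and miR-222-3p (adjusted p 0.0952, 0.0945 and 0.0877) with 5.37% of all miRNAs below 0, and all 3 passed with TMM, with DESeq2 size factors, in edgeR, in DESeq2 and without library 16 (-0.91, -0.98 and -0.88, adjusted p 0.0164, 0.0133 and 0.00357). miR-221-5p in KO also passed without library 8 or 33. The median of all miRNAs in KO was 0.44 with totals and -0.24 with DESeq2 size factors, and relative to it the 3 arms lay at -1.10, -1.14 and -1.02 with totals. Of all miRNAs 77 passed above and 16 below 0 in KO with totals, and 45 and 60 with DESeq2 size factors, while in WT 20 and 17 did so with totals and 32 and 10 with TMM. In A537T the values were -0.57, -0.25 and -0.67 (adjusted p 0.353, 0.748 and 0.165), with 0% of all miRNAs below 0 and 5 above it. Of the 6 tests in KO and A537T, 4 had an unadjusted p under 0.05. Of all 298 miRNAs, 137 had one in KO and 52 in A537T.

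No difference between the Elac2 lines passed the adjusted test for the 3 arms. Of 24 tests of KO or A537T against WT, 0 passed in limma, 5 had an unadjusted p under 0.05, and edgeR and DESeq2 each called 1. The log2 changes ran from -0.58 to 0.47, with adjusted p from 0.104 to 0.987. The lowest belonged to KO-TRAMP against WT-TRAMP at 30 weeks, where miR-221-3p was at 562 ± 184 against 815 ± 67.2 CPM (-0.58 ± 0.22, limma adjusted p = 0.107) and miR-222-3p at 238 ± 93.0 against 322 ± 14.9 CPM (-0.50 ± 0.19, adjusted p = 0.104). miR-221-3p there passed with TMM (-0.73, adjusted p = 0.0375), in edgeR (-0.61, adjusted p = 0.0474) and in DESeq2 (-0.59, adjusted p = 0.0429). The limma result also depended on library 16, since without it both arms passed (-0.83, adjusted p = 0.00816, and -0.80, adjusted p = 0.00109).

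The highest of these changes belonged to KO against WT at 10 weeks, with 1370.4 ± 159.5 against 1006 ± 251 CPM of miR-221-3p (0.47 ± 0.22, limma adjusted p = 0.184) and 530.2 ± 21.3 against 396 ± 49.3 CPM of miR-222-3p (0.43 ± 0.19, adjusted p = 0.16). The libraries of KO and WT did not overlap for miR-221-3p or miR-222-3p. Without library 28 the miR-221-3p difference passed (0.65, adjusted p = 0.044). WT at 10 weeks held more skeletal muscle miRNAs than KO (9.71% to 30.6% against 0.734% to 6.49% of the reads). With these miRNAs out of the totals the differences were 0.18 for miR-221-3p and 0.14 for miR-222-3p (adjusted p 0.633 and 0.692). As background, 5.7% of all miRNAs were called in KO against WT at 10 weeks, 1.01% at 30 weeks, and 4.03% in KO-TRAMP against WT-TRAMP at 30 weeks. In these comparisons 74, 49 and 61 of the 298 miRNAs had an unadjusted p under 0.05. The share was 0% in KO-TRAMP against WT-TRAMP at 10 weeks and in the 4 comparisons of A537T lines with WT lines, where 15 to 35 miRNAs had an unadjusted p under 0.05. In A537T-TRAMP against WT-TRAMP at 30 weeks miR-221-3p, miR-221-5p and miR-222-3p changed by 0.38, 0.37 and 0.40 (limma adjusted p 0.688, 0.702 and 0.644). There miR-222-3p had an unadjusted limma p of 0.0428, and 22 of the 298 miRNAs had one under 0.05. The libraries of these groups did not overlap for any of the 3 arms. The share of all miRNAs without overlap was not counted for KO or A537T against WT.

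The ratio between the arms does not depend on how libraries are scaled, since both arms come from the same library. miR-221-5p made up a larger share relative to miR-221-3p in TRAMP prostates. At 30 weeks the reads of miR-221-5p were 4.03% to 5.89% of those of miR-221-3p in the 9 libraries without TRAMP and 6.31% to 10.2% in the 9 with TRAMP, without overlap. Arm ratios of other hairpins were not computed, so whether this shift is particular to Mir221 was not tested. The group means were 5.21% ± 0.562 in WT against 6.97% ± 0.514 in WT-TRAMP (SD, n = 3), 5.05% ± 0.733 in KO against 9.61% ± 0.48 in KO-TRAMP and 4.53% ± 0.85 in A537T against 6.94% ± 0.941 in A537T-TRAMP. The mean difference within lines was 0.66 on the log2 scale, with 0.42 to 0.94 in the single lines (exact permutation test within lines, two-sided, p = 0.00025, the smallest it can give, adjusted p = 0.003 over 12 tests). Library 16, high for each arm, had a ratio within the range of 9.27% to 10.2% of its group.

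At 10 weeks the ratio was 3.27% to 5.52% without TRAMP and 4.53% to 9.50% with TRAMP, with some overlap. The mean difference was 0.55 on the log2 scale (0.31 to 0.98 in the lines, exact permutation p = 0.00625, adjusted p = 0.0375). This call was lost without library 2, 3, 9, 28, 31, 32, 33 or 35 (adjusted p up to 0.086), while the difference stayed between 0.47 and 0.65 when any 1 library was left out. The age difference of the ratio was 0.18 without TRAMP (exact permutation adjusted p = 0.229) and 0.30 with TRAMP (adjusted p = 0.143), which passed without library 4 (0.37). It differed by 0.11 between KO and WT (adjusted p = 0.494) and by -0.01 between A537T and WT (adjusted p = 0.919), over 12 libraries of each line. The KO difference ran from -0.31 to 0.47 over the 4 strata of age and TRAMP, above 0 in 2 of them, and in TRAMP at 30 weeks KO-TRAMP (9.27% to 10.2%) did not overlap with WT-TRAMP (6.38% to 7.31%).

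The ratio of the family partners overlapped between all blocks of 9 libraries. The reads of miR-222-3p were 25.8% to 49.4% of those of miR-221-3p over the 36 libraries, with a median of 39.7%. With TRAMP against without, the mean difference was -0.17 on the log2 scale at 10 weeks and -0.02 at 30 weeks (exact permutation adjusted p 0.229 and 0.761). The ratio was higher at 30 than at 10 weeks on the TRAMP background, 36.8% to 44.9% against 25.8% to 43.2%, by 0.25 on the log2 scale (exact permutation p = 0.01075, adjusted p = 0.043), a call that was lost without 1 library in all but 4 of 18 cases (libraries 1, 2, 5, 6, 8 to 13 and 15 to 18, adjusted p up to 0.099). Without TRAMP the age difference was 0.11 (adjusted p = 0.282). Against WT it was 0.11 in KO and 0.06 in A537T (adjusted p 0.229 and 0.494). Both ratios have miR-221-3p as denominator, and the ease with which each miRNA ligates to adapters differs, so they are not ratios of molecules.

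**Figure D4:**
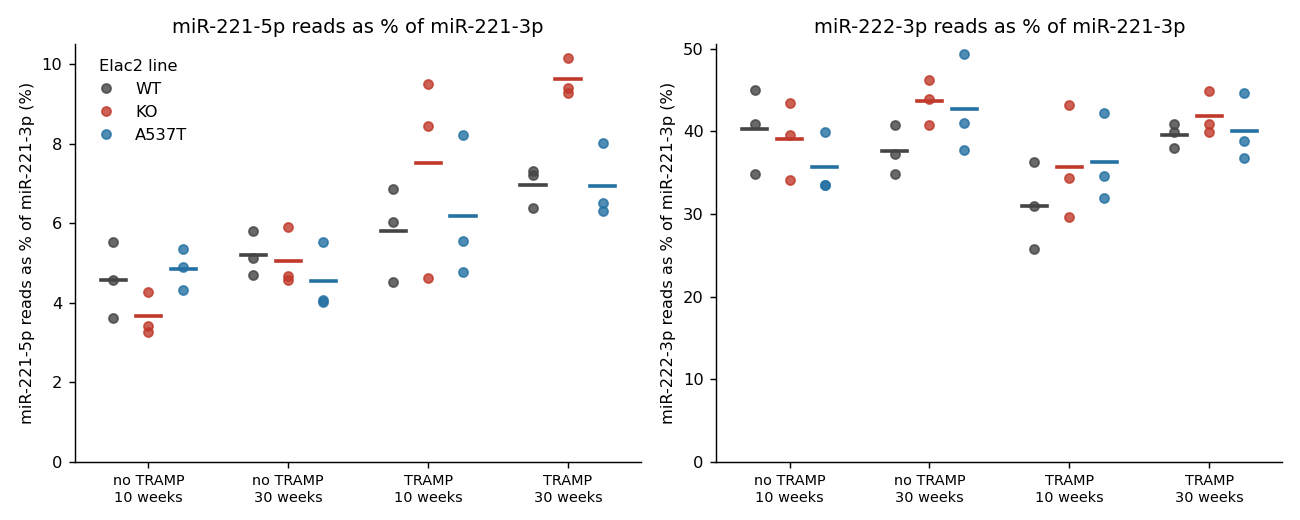
Reads of miR-221-5p (left) and miR-222-3p (right) as a percent of the reads of miR-221-3p in each library, by TRAMP background, age and Elac2 line; bars are means of 3. The miR-221-5p ratio is 6.31% or more in all TRAMP libraries at 30 weeks and 5.89% or less in all libraries without TRAMP, while the miR-222-3p ratio overlaps throughout.

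In the order of mean levels, the 3 groups without TRAMP at 30 weeks stood highest for each of the 3 arms. For miR-221-3p they were followed by KO at 10 weeks (1370.4 CPM), which did not overlap with the next group, A537T-TRAMP at 30 weeks (1067 CPM), and KO-TRAMP at 30 weeks was lowest (562 CPM). That was the only pair of neighbours without overlap in the order of miR-221-3p. For miR-222-3p the neighbours without overlap were WT at 30 weeks (607 CPM) and KO at 10 weeks (530.2 CPM), KO at 10 weeks and A537T-TRAMP at 30 weeks (425 CPM), and WT at 10 weeks (396 CPM) and WT-TRAMP at 30 weeks (322 CPM). For miR-221-5p they were A537T-TRAMP at 30 weeks (73.3 CPM) and WT-TRAMP at 10 weeks (59.1 CPM). All other neighbours overlapped in range. The order was set by these same means, and neighbours without overlap were not counted for other miRNAs.

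The miRNAs whose pattern over the 12 group means was most like that of miR-221-3p were miR-222-3p (Pearson r of log2(CPM + 1) 0.966), miR-29a-3p (0.893), miR-29c-3p (0.876), miR-187-3p (0.866) and miR-328-3p (0.842). The lowest was miR-449a-5p (-0.815). miR-221-5p stood at rank 41 of 297 by this measure (0.627). These are descriptions over 12 group means, and the miRNAs compared come from the same libraries with the same scaling.

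The tissue held its epithelial miRNAs, with the 8 of the list together at 3.95% to 10.3% of the reads. At 30 weeks, where both 3p arms were lower with TRAMP, the summed level of 5 white blood cell miRNAs was 234 to 634 CPM without and 731 to 1696 CPM with TRAMP, without overlap, and that of 6 miRNAs of the proliferation-linked Mir17hg cluster was 689 to 1331 and 1301 to 2373 CPM. Of the 5 white blood cell miRNAs 3, 3 and 2 were called higher with TRAMP in WT, KO and A537T, and of the 5 tested of the cluster 5, 4 and 4. Both lists moved opposite to the family at 30 weeks. At 10 weeks 5, 1 and 3 of the 5 tested of the cluster were also called higher with TRAMP in WT, KO and A537T. Neither 3p arm was called in WT or A537T at that age with library totals. The part of both lists in the 30-week result was not tested. The 2 endothelial, 4 smooth muscle, 5 fibroblast, 8 epithelial, 6 skeletal muscle, 4 red cell and 5 neuroendocrine miRNAs overlapped between the same 9 and 9 libraries in summed level. Within KO, the line with the lowest 3p arms under TRAMP, neuroendocrine miRNAs were at 5648 to 19158 CPM with TRAMP and 4063 to 6859 CPM without, and 1 of the 4 tested was called higher, and their part in the KO result was not tested. miR-375-3p stood in both the neuroendocrine and the epithelial list, and reached 10627 CPM over the 36 libraries. Smooth muscle miRNAs alone made up 12.4% to 29.3% of the reads without and 5.59% to 33.9% with TRAMP at 30 weeks, and none of the 4 passed the test in any line there.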

How the data were processed

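Small RNA libraries were made from ventral and lateral prostate lobes with a TruSeq small RNA kit and sequenced on a NovaSeq. Per the study's methods, the authors merged read pairs with BBMerge, mapped and counted miRNAs with mirDeep2 against GRCm38 and miRBase, summed identical miRNAs and tested them with DESeq2. The deposited tables of 6 libraries each hold a normalised signal per miRNA, which the values show to be read counts divided by 1 factor per library. Multiplying by that factor recovered whole reads, within 0.01 read, for 100% of the values. Each library column was divided by its sum to give CPM, which cancels the factors and puts all tables on 1 scale. The groups of the columns follow from the labels of the tables. Columns of fold changes and s-values from the authors' own comparisons were not used.

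limma 3.58.1 (R 4.3.3) was fitted with a variance trend on log2(CPM + 1) of all 36 libraries with 12 group means, for 298 miRNAs with a mean of at least 10 CPM. P-values were adjusted by Benjamini-Hochberg within each contrast at 0.05. Ratios of arms were compared by exact two-sided permutation within lines (within strata of age and TRAMP for KO and A537T against WT) and adjusted over 12 tests. The alternatives were a pseudocount of 10, no filter or a minimum of 100 CPM, other scalings, edgeR 4.0.16 and DESeq2 1.42.0 on the recovered reads, and leaving out each library. The steps were tested on simulated data. Named miRNAs were the members and the 5 most alike and 1 least alike in pattern. The members and the marker lists were chosen with earlier results of these data known. No molecular identifiers were used, so limits from read counts cover counting error only. Libraries are numbered as in the deposited columns.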

Additional observations from a re-analysis of the deposited data

Results flagged for a closer look

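The TRAMP effect on miR-221-3p differed between the ages in WT by a test of the difference itself, at -1.05 on the log2 scale (limma adjusted p = 0.0263). It missed the threshold without the filter (adjusted p = 0.0703), with TMM (0.06), with skeletal muscle miRNAs out of the totals (0.11) and without library 1, 2, 12 or 30. miR-221-5p in WT moved in opposite directions at the 2 ages without overlap of the libraries: WT-TRAMP was at 1.33 times the WT level at 10 weeks and at 0.674 times at 30 weeks, a pattern found in 4.03% of all miRNAs. With skeletal muscle miRNAs, 9.71% to 30.6% of the reads in WT at 10 weeks, out of the totals, the 10-week change went from 0.40 to 0.091 on the log2 scale (limma adjusted p = 0.791). The test of that difference gave -0.96 on the log2 scale (limma adjusted p = 0.0506). Groups of 3 libraries are too small for a test of outlying samples.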

How the results depend on the processing

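The decreases of miR-221-3p and miR-222-3p with TRAMP at 30 weeks kept their direction and stayed past the threshold under every alternative, except miR-221-3p in A537T, which missed it without the filter (-0.65, adjusted p = 0.13), with the groups of the contrast alone (-0.65, adjusted p = 0.112) and without library 14, 15, 25 or 26. No paired analysis was possible because the columns carry no replicate number, so the planned replicate block was not run. The cause of the changes below was not tested. With a minimum of 100 CPM miR-221-5p was not tested. Groups of 3 libraries and the 24 reads of miR-221-5p in library 35 limit the precision.

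Values are log2 changes with adjusted p (limma unless named). Without the filter: age in WT, miR-221-3p 0.71 (0.0739) and miR-222-3p 0.62 (0.0669), and interaction in WT, miR-221-3p -1.05 (0.0703). The interaction of miR-221-5p in WT passed with a pseudocount of 10 (-0.84, 0.0481), without the variance trend (-0.96, 0.0463) and with the groups alone (-0.96, 0.0115). TMM: the TRAMP effect at 10 weeks turned to -0.049 for miR-221-3p in WT and to 0.17 and 0.19 for miR-221-3p and miR-222-3p in A537T, miR-221-5p turned to 0.016 for age in WT-TRAMP and to -0.031 for KO against WT at 10 weeks, age in WT was 0.57 (0.07), 0.76 (0.071) and 0.47 (0.155) for miR-221-3p, miR-221-5p and miR-222-3p, the WT interaction of miR-221-3p -0.83 (0.06), and passing were miR-221-5p with TRAMP at 30 weeks in KO (-0.77) and with age in KO (0.85), miR-221-3p for age in KO-TRAMP (-0.76) and the KO interactions (-1.16, -1.19 and -1.08 for miR-221-3p, miR-221-5p and miR-222-3p, the order used below). DESeq2 size factors: miR-221-3p and miR-222-3p turned to 0.18 and 0.20 in A537T at 10 weeks and miR-221-5p to -0.079 for KO against WT, the KO effects at 10 weeks were -0.41 (0.108) and -0.55 (0.0599), age in WT 0.85 (0.0511) for miR-221-5p and 0.56 (0.116) for miR-222-3p, and passing were miR-221-5p in KO at 30 weeks (-0.82), age in KO (0.59, 1.04 and 0.76 for miR-221-3p, miR-221-5p and miR-222-3p), miR-221-3p in KO-TRAMP (-0.77) and the KO interactions (-1.36, -1.38 and -1.27). Totals without skeletal muscle: miR-221-3p in WT at 10 weeks turned to -0.25 and miR-221-5p for KO against WT to -0.13, miR-222-3p in WT at 10 weeks passed (-0.63), and age in WT (0.39, 0.58 and 0.30) and the WT interaction (-0.73) did not. Groups alone: miR-221-5p in WT at 30 weeks passed (-0.56, 0.0241), and age in WT (0.71, 0.90 and 0.62, with 0.124, 0.0605 and 0.122) and miR-221-5p in A537T (0.80, 0.0618) did not. edgeR: signs turned for miR-221-3p (0.079) and miR-222-3p (0.11) in A537T at 10 weeks and miR-221-5p for age in WT-TRAMP (0.019), age of miR-222-3p in WT did not pass (0.50, 0.0914), and passing were miR-221-5p in KO at 30 weeks (-0.62), age in KO (0.81 for miR-221-5p and 0.53 for miR-222-3p), miR-221-3p in KO-TRAMP (-0.60) and the KO interactions (-0.96, -1.03 and -0.87). DESeq2: signs turned for miR-221-3p in WT (-0.021) and A537T (0.083), miR-222-3p in A537T (0.12) and miR-221-5p for KO against WT (-0.054), age of miR-222-3p in WT did not pass (0.54, 0.0891), and passing were miR-221-5p in KO at 30 weeks (-0.70), age in KO (0.93 for miR-221-5p and 0.64 for miR-222-3p), miR-221-3p in KO-TRAMP (-0.67) and the KO interactions (-1.14, -1.21 and -1.06).

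Of the members' tests past the threshold, the age count of 6 became 3 without skeletal muscle in the totals and 2 with the groups alone, the mutation count of 0 became 1 with TMM, edgeR or DESeq2, and the interaction count of 1 became 0 without the filter or without skeletal muscle, 2 with a pseudocount of 10, without the trend or with the groups alone, 3 with TMM and 4 with DESeq2 size factors, edgeR or DESeq2. Leaving out 1 library gave 3 to 8, 0 to 2 and 0 to 4.

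Leaving out 1 library gave these ranges. TRAMP at 10 weeks: miR-221-3p -0.12 to 0.25 in WT and -0.23 to 0.077 in A537T, miR-222-3p -0.25 to 0.064 in A537T. TRAMP at 30 weeks: miR-221-3p in A537T -0.82 to -0.47, miR-221-5p -0.80 to -0.29 in KO and -0.11 to 0.070 in A537T. Age: WT 0.52 to 0.89, 0.80 to 0.97 and 0.51 to 0.69 for miR-221-3p (lost without library 19, 20, 21, 29 or 30), miR-221-5p (19) and miR-222-3p (19, 21 or 30), miR-221-5p 0.43 to 0.80 in KO and 0.68 to 1.04 in A537T, miR-222-3p -0.018 to 0.076 in WT-TRAMP, and in KO-TRAMP miR-221-3p -0.78 to -0.32, miR-222-3p -0.58 to -0.061 and miR-221-5p -0.39 to 0.12. Interaction: WT -1.23 to -0.87 for miR-221-3p and -1.04 to -0.86 for miR-221-5p, KO -0.91 to -0.46, -0.98 to -0.47 and -0.88 to -0.36 for miR-221-3p, miR-221-5p and miR-222-3p. Mutation: miR-221-5p -0.053 to 0.28 in KO at 10 weeks and -0.40 to 0.11 in KO-TRAMP at 30 weeks. Ratios: miR-221-5p to miR-221-3p with TRAMP at 10 weeks 0.47 to 0.65, with age in TRAMP 0.19 to 0.37 and in A537T against WT -0.066 to 0.031, and miR-222-3p to miR-221-3p with age in TRAMP 0.21 to 0.30 and with TRAMP at 30 weeks -0.051 to 0.014. Adding 1 read to each arm changed no call of the ratios.

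The number of miRNAs past the threshold, of all tested, moved by over 1.5 times as follows. Without the filter: TRAMP effect in WT at 10 weeks 122 to 184 and in KO at 30 weeks 108 to 241, age in WT 39 to 63, in KO-TRAMP 54 to 150 and in A537T-TRAMP 26 to 15, KO against WT 17 to 28 at 10 weeks and 3 to 0 at 30 weeks, A537T against WT at 10 weeks 0 to 2, and KO-TRAMP against WT-TRAMP at 30 weeks 12 to 65. From 100 CPM: TRAMP effect in WT, KO and A537T 122, 142 and 117 to 72, 78 and 59 at 10 weeks and 100, 108 and 45 to 50, 69 and 27 at 30 weeks, age in KO 46 to 15, A537T 54 to 35, WT-TRAMP 26 to 11 and KO-TRAMP 54 to 18, KO against WT 17 to 10 and 3 to 1, KO-TRAMP against WT-TRAMP at 30 weeks 12 to 0, and interactions in WT, KO and A537T 37, 93 and 5 to 23, 39 and 0. With the groups alone: TRAMP effect in KO at 30 weeks 63, age in WT 21, KO 71, WT-TRAMP 69, KO-TRAMP 1 and A537T-TRAMP 6, KO against WT at both ages and KO-TRAMP against WT-TRAMP at 30 weeks 0, and the A537T interaction 29. In edgeR and DESeq2: age in KO 81 and 98, KO against WT at 30 weeks 35 and 39, A537T against WT at 30 weeks 0 to 19 and 24, KO-TRAMP against WT-TRAMP at 30 weeks 25 and 43, and the A537T interaction 2 and 12. In edgeR alone age in A537T-TRAMP gave 12, and in DESeq2 alone age in WT-TRAMP gave 44, KO against WT at 10 weeks 32, A537T against WT at 10 weeks 1, A537T-TRAMP against WT-TRAMP at 30 weeks 0 to 2 and the WT interaction 59. With TMM and DESeq2 size factors: KO against WT at 30 weeks 8 and 29, A537T against WT at 30 weeks 20 and 13, and the A537T interaction 0 and 0, with TMM age in A537T-TRAMP 13 and with DESeq2 size factors age in KO 99. With a pseudocount of 10: KO against WT at 30 weeks 0, KO-TRAMP against WT-TRAMP at 30 weeks 23 and the A537T interaction 8. Without skeletal muscle in the totals: A537T against WT at 10 weeks 1 and the A537T interaction 20.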
